A study of Capra hircus with 2 samples.

Results

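The miR-181 family is a group of microRNAs (miRNAs), short RNAs that guide silencing proteins to messenger RNAs. Its members were taken from the authors' table of known miRNAs of the goat endometrium as every name that reads miR-181a, miR-181b, miR-181c or miR-181d, with any species prefix, arm or end annotation. This gave 6 of the 587 names, of which miR-181a, miR-181b and miR-181c each had a 5p and a 3p name and miR-181d had 0 names. Reads with a mismatch to a known miRNA were retained by the authors, so that reads of a closely similar miRNA can be counted under the name of another member. The endometrium is the lining of the uterus and becomes receptive to the embryo for a short period of early pregnancy. The study compared this period with the pre-receptive phase before it.

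Endometrium of healthy, multiparous Xinong Saanen dairy goats (Capra hircus) of 24 months, brought into synchronized estrus and mated naturally, was collected at gestational day 5 (P, pre-receptive, 10 goats) and day 15 (R, receptive, 10 goats). Within each phase, the goat with the poorest RNA was left out and the RNA of the others was mixed into pools. These were sequenced in repeated runs, and the values are deposited as 1 library per phase. There were 2 libraries and no replicates, and the spread between goats was not measured. The known miRNAs held 1904242 reads in the R library and 4046632 reads in the P library. The value deposited for each name is the normalized expression (NE), in which 1 read was worth 0.860 NE in R and 1.16 NE in P.

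A miRNA is cut from a hairpin precursor, whose 5′ side gives the 5p strand and whose 3′ side the 3p strand. One of these usually accumulates while its partner is mostly degraded. Bases 2 to 8 of a miRNA, the seed, pair with the target messenger RNA and largely set which genes are recognised. The family is known from lymphocyte development, where miR-181a tunes the response of the T cell receptor. It is also expressed in many other tissues.

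The mature sequences of the 3 names of the 5p arm are shown because they carry almost all reads of the family and differ outside the seed, which is in capitals. Each sequence is a read chosen by the authors to stand for a cluster of similar reads, and the reads counted under a name can differ from it at their ends.
oar-miR-181a: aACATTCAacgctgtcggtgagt
hsa-miR-181c-5p_R+1: aACATTCAacctgtcggtgagtt
mdo-miR-181b-5p: aACATTCAttgctgtcggtgggt
Counted from the 5′ end of oar-miR-181a, mdo-miR-181b-5p differed by the substitutions A9T, C10T and A21G. The aligned sequences of oar-miR-181a and hsa-miR-181c-5p_R+1 had 0 substitutions, with 1 base found only in the former and 1 base only in the latter. The suffix R+1 means that the listed read was 1 base longer at its 3′ end than the known miRNA.

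The names of the 3p arm of miR-181a and miR-181c are shown with the known form of the latter, since the start of the listed read sets the seed.
hsa-miR-181a-3p: aCCATCGAccgttgattgtacc
hsa-miR-181c-3p_L-1R+1: aCCATCGAccgttgagtggacc
hsa-miR-181c-3p: aACCATCGaccgttgagtggac
The listed read of miR-181c-3p began 1 base after the known form. With this start its seed was that of hsa-miR-181a-3p, whereas the known form has another. Counted from the 5′ end of hsa-miR-181a-3p, hsa-miR-181c-3p_L-1R+1 differed from it by T16G and T19G. The name of the miR-181b 3p arm, mdo-miR-181b-2-3p_L+2R-1_1ss22AT, began 2 bases before its known form and had a seed of its own. Among the other known names and the 621 candidate names predicted by the authors, 0 had the seed of any family name.

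The 5p names were among the abundant miRNAs of both libraries. oar-miR-181a had 20920 NE in R and 55420 NE in P, from 24329 and 47655 reads, and ranked 14 in R and 9 in P among the known names. hsa-miR-181c-5p_R+1 had 4421 NE in R and 10612 NE in P (5141 and 9125 reads) and ranked 35 and 21. mdo-miR-181b-5p had 3170 NE in R and 7214 NE in P (3686 and 6203 reads) and ranked 43 and 33. The order miR-181a, miR-181c, miR-181b was the same in both libraries, and each neighbour in this order differed beyond the counting error of its reads.

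The 3p names were far less abundant. hsa-miR-181c-3p_L-1R+1 had 254.5 NE in R and 314 NE in P, from 296 and 270 reads. hsa-miR-181a-3p had 103.2 NE in R, from 120 reads, and 165.1 NE in P. mdo-miR-181b-2-3p_L+2R-1_1ss22AT had 1 read in each library (0.860 NE in R and 1.16 NE in P), which is under the limit of 3 reads used here, and no ratio is given for it. The order of the 3p names differed from that of the 5p names, with miR-181c above miR-181a.

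**Figure D1:**
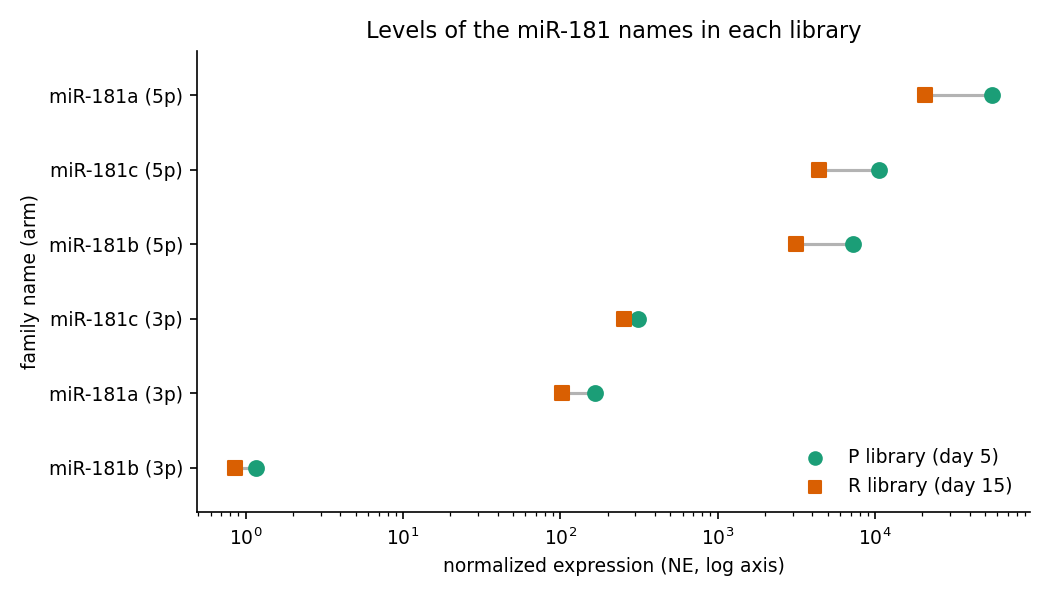
Normalized expression (NE, log axis) of the 6 names of the miR-181 family in the P library (circles) and the R library (squares), 1 library each and without error bars. On this scale each R value lies to the left of its P value, with a wider gap for the 5p names than for the 3p names; scaled to listed reads, the 5 names with more than 1 read per library lie the other way round.

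On the deposited scale, the 3 5p names were lower in R by more than 2-fold, a direction that held when scaled to clean reads and was turned when scaled to listed reads. The log2 ratio of R to P of oar-miR-181a was -1.41 (95% exact interval -1.43 to -1.38), a 2.65-fold lower NE. That of hsa-miR-181c-5p_R+1 was -1.26 (-1.31 to -1.21), and that of mdo-miR-181b-5p was -1.19 (-1.25 to -1.13). Fisher's exact test (two-sided) takes the clean reads as its total, not the deposited scale. For hsa-miR-181c-5p_R+1, with a log2 ratio of -0.48 per clean read, Fisher's exact test gave P = 1.67e-83. For mdo-miR-181b-5p, with -0.40 per clean read, the same Fisher's exact test gave P = 4.55e-42. A difference was called at P under 0.05 with a ratio beyond 2-fold, and the test compares the reads of 2 libraries, not the phases. Since copies made by PCR were not told apart by molecular identifiers, the intervals and limits cover counting error only. In a tissue sample, fewer cells that contain a miRNA and less of it per cell cannot be told apart.

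Of the 6 family names tested, 3 were called lower in R and 0 higher, where 8.39% of the 441 known names tested were called lower and 19.0% higher. These calls join a 2-fold limit on NE to a P on clean reads, 2 scales that lie 0.78 apart in log2. This makes a call lower in R harder to reach than a call higher. With the exact binomial test on the deposited scale, 70 names were called higher and 49 lower, in place of 84 and 37. The percentages called on the deposited scale given further below have the same limit. Among the 63 names with at least 1000 reads in each library, 23.8% were called lower, and their median log2 ratio was -0.56, against 0.02 for all tested names. A lower value than that of oar-miR-181a was found for 7 of these 63 names and for 10.2% of all tested names. For hsa-miR-181c-5p_R+1 the share of all tested names was 11.8% and for mdo-miR-181b-5p 13.8%. The median log2 ratio of the 5 family names with a ratio was -1.19 on the deposited scale.

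The 3p names did not reach 2-fold on the deposited scale, and their direction depended on the scale. The log2 ratio of NE was -0.68 for hsa-miR-181a-3p (95% exact interval -1.04 to -0.32) and -0.30 for hsa-miR-181c-3p_L-1R+1 (-0.55 to -0.06), but both were higher in R when scaled to listed reads (0.84 and 1.22). Scaled to clean reads, hsa-miR-181c-3p_L-1R+1 was higher in R (0.48), while the ratio of hsa-miR-181a-3p was 0.10 with an interval on both sides of no difference (-0.26 to 0.47). Fisher's exact test takes the clean reads as its total, and for hsa-miR-181c-3p_L-1R+1 it gave P = 8e-05 in the direction of a higher share in R. For hsa-miR-181a-3p the same exact test gave P = 0.576. An exact binomial test on the scale of NE gave P = 0.0136 and P = 0.000167, both towards a lower value in R.

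**Figure D2:**
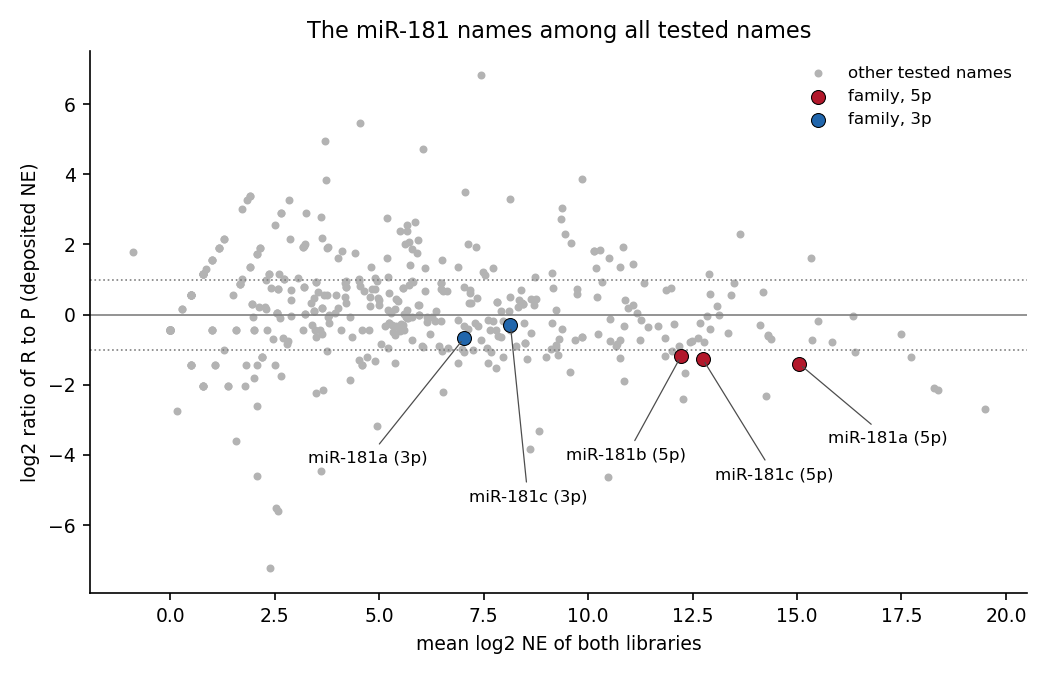
Log2 ratio of R to P on the deposited scale against the mean log2 NE of both libraries for the 441 tested known names (grey), with the 5p (red) and 3p (blue) names of the family that had more than 3 reads. Dotted lines mark a 2-fold difference; the 5p names lie below the lower one on this scale and between both lines, above 0, when reads are scaled to listed reads.

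The ratio between the libraries rests on how they are scaled to each other, and a change of scaling moves every log2 ratio by the same amount. Scaling to the clean reads adds 0.78 and brings the median of all tested names to 0.81, and scaling to the listed reads adds 1.52 and brings it to 1.55. Per clean read, the log2 ratios were -0.62 for oar-miR-181a, -0.48 for hsa-miR-181c-5p_R+1 and -0.40 for mdo-miR-181b-5p, so that 0 family names were called lower, against 4.31% of all tested names. Per listed read, the same ratios were 0.12, 0.26 and 0.34, and 1 family name, hsa-miR-181c-3p_L-1R+1, was called higher in R (log2 ratio 1.22), where 58.0% of all tested names were. The most abundant name of the tables, aja-miR-143_1ss22GT, held 17.7% of the listed reads in R and 39.7% in P, and this share enters the listed total.

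**Figure D3:**
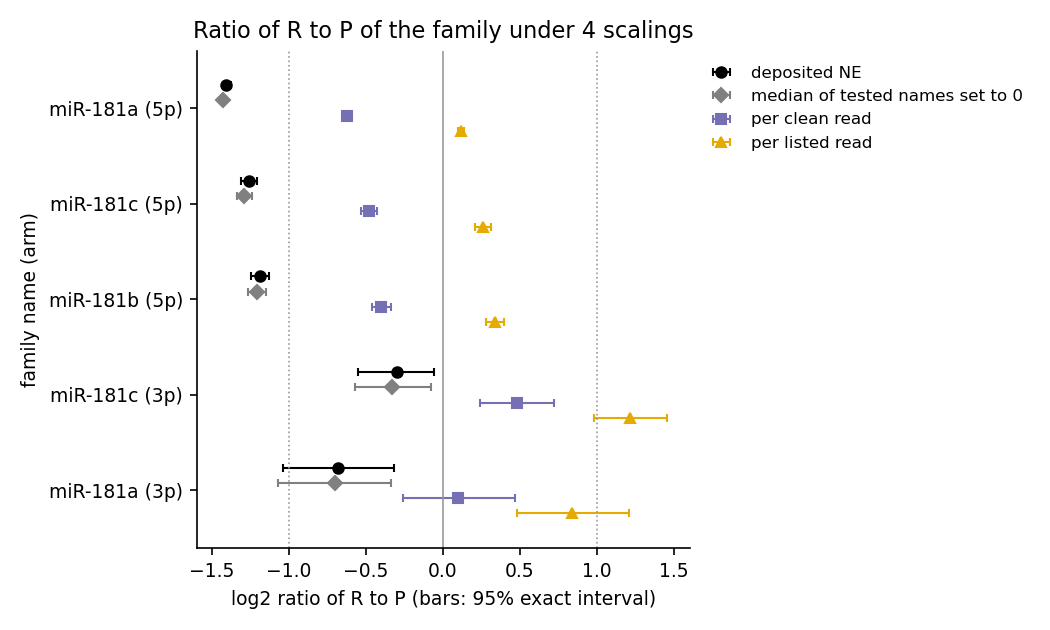
Log2 ratio of R to P of the 5 family names with more than 3 reads per library under 4 scalings, with 95% exact intervals as bars and 2-fold differences as dotted lines. The 5p names run from -1.41, -1.26 and -1.19 with the deposited NE to 0.12, 0.26 and 0.34 per listed read, and the scalings move all names by equal steps.

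The ratio of 2 names within a library does not depend on the scaling, and it was compared between the libraries for the 10 pairs of the 5 names with at least 10 reads in each library. Relative to the other 5p names, miR-181a was lower in R. There were 6.60 reads of oar-miR-181a for each read of mdo-miR-181b-5p in R and 7.68 in P, a log2 difference of -0.22 (95% exact conditional interval -0.28 to -0.16; Fisher's exact test, P = 1.17e-11, Benjamini-Hochberg adjusted over the 10 pairs 2.93e-11). Against hsa-miR-181c-5p_R+1 the reads were 4.73 to 1 in R and 5.22 to 1 in P, a log2 difference of -0.14 (-0.20 to -0.09; same exact test, adjusted P = 5.77e-07). Between hsa-miR-181c-5p_R+1 and mdo-miR-181b-5p the difference did not pass the threshold (log2 difference -0.08, interval -0.15 to 0.00; same exact test, adjusted P = 0.056).

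The same differences appear in the shares of the 5p names. Within the 5p reads of the family, oar-miR-181a made up 73.4% in R (95% interval, exact, 72.9% to 73.9%), against 75.7% in P (75.3% to 76.0%). hsa-miR-181c-5p_R+1 made up 15.5% in R (15.1% to 15.9%), against 14.5% in P (14.2% to 14.8%). mdo-miR-181b-5p made up 11.1% in R (10.8% to 11.5%), against 9.85% in P (9.62% to 10.1%). None of these 3 pairs of intervals overlapped, and the miR-181a sequence made up most of the seed group in both libraries.

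The balance of the arms moved further than the balance among the 5p names. For each 1000 reads of hsa-miR-181c-5p_R+1 there were 57.6 reads of the 3p name in R and 29.6 in P. The 5p to 3p ratio thus had a log2 difference between R and P of -0.96 (95% exact conditional interval -1.21 to -0.71; Fisher's exact test, adjusted P = 6.18e-14). For miR-181a there were 4.93 reads of the 3p name per 1000 of the 5p name in R and 2.98 in P, a log2 difference of the 5p to 3p ratio of -0.73 (-1.09 to -0.36; same exact test, adjusted P = 0.000103). The reads of its 5p name were not divided by precursor, and sheep has 2 precursors of mir-181a. The reads of the 2 names thus need not come from the same hairpin. The 3p names together held 417 of the family reads in R and 413 in P. As a share of all family reads this was 1.24% in R (95% interval, exact, 1.13% to 1.37%), against 0.651% in P (0.590% to 0.717%). The 3p names of miR-181c and miR-181a did not differ from each other past the threshold (log2 difference 0.38, interval -0.06 to 0.82; same exact test, adjusted P = 0.086).

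A lower 5p to 3p ratio in R was also found for other miRNAs. Among the 60 other miRNAs with at least 10 reads of each arm in each library, the log2 difference was below 0 for 36 and above 0 for 24, with a median of -0.18. At an adjusted P under 0.05, the ratio was lower in R for 22 of the 60 and higher for 12. Values lower than that of miR-181c were found for 12 of the 60 (20.0%), and lower than that of miR-181a for 16 (26.7%). The lowest differences were those of miR-10a (-2.88), miR-26b (-2.42), miR-574 (-2.12) and miR-10b (-2.02), and the highest those of miR-28 (1.64), miR-132 (1.54), miR-143 (1.41) and miR-24 (1.35). When each ratio was taken as the abundant over the minor arm, an orientation chosen after seeing the data, the median of the 60 was -0.43, with 38 below 0, and the share with lower values was 25.0% for miR-181c and 35.0% for miR-181a. The change of arm ratio in the family lay within the range of the other miRNAs.

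**Figure D4:**
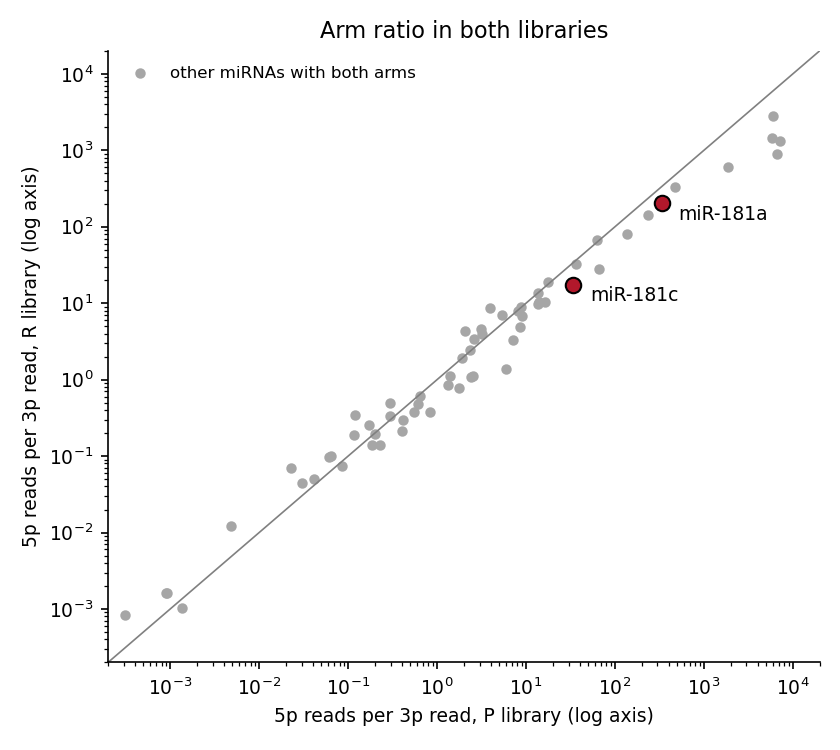
Reads of the 5p arm per read of the 3p arm in the P library (horizontal) and the R library (vertical), both on log axes, for miR-181a and miR-181c (red) and 60 other miRNAs with both arms (grey). The line marks equal ratios; miR-181c (33.8 in P, 17.4 in R) and miR-181a lie below it.

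The family as a whole summed to 28869 NE in R and 73726 NE in P, from 33573 and 63396 reads. Its share of the listed reads was 1.76% in R (95% interval, exact, 1.74% to 1.78%), against 1.57% in P (1.55% to 1.58%). The order of these shares was turned by the total, since of the clean reads the family held 0.793% in R and 1.18% in P, and of the listed reads without aja-miR-143_1ss22GT 2.14% in R and 2.60% in P.

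Outside the family, the 5 names with at least 1000 reads in each library whose log2 ratio of NE was nearest to that of oar-miR-181a, over these 2 libraries, were ptr-miR-92_R+2 (-1.25), oar-miR-26a (-1.21), hsa-miR-192-5p (-1.17), bta-miR-320a (-1.65) and oar-miR-26b_R+1 (-1.07). Scaled to the listed reads, 4 of them were higher in R, as the family's 5p names were, and bta-miR-320a was lower (-0.13). Of these 5, oar-miR-26a (142847 NE in R and 330582 NE in P) and oar-miR-26b_R+1 (59230 and 124009 NE) were more abundant than oar-miR-181a in both libraries.

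The values of miRNAs known from particular cell types are given because the tissue samples can differ in their cells. Names were called in some of these lists and in others not. Of the 13 tested names of the epithelial list (miR-200 family, miR-203, miR-205, miR-375 and the miR-183 cluster), 11 were called higher in R and 0 lower on the deposited scale. Among all 441 tested names, 19.0% were called higher and 8.39% lower on this scale, and 58.0% higher scaled to listed reads. The median log2 ratio of the epithelial list was 3.04 on the deposited scale and 4.57 scaled to listed reads. The 16 names of the list summed to 38573 NE in R, against 6977 NE in P. The most abundant was hsa-miR-141-3p_R-1 (28337 NE in R and 5791 NE in P). At 0 in P were 3 names (hsa-miR-182-3p_L+2R-1, hsa-miR-183-3p_L-1 and mmu-miR-203-5p_1ss11GA). Of the 10 tested names of the muscle list, 8 were called lower in R and 0 higher on the deposited scale (median -2.55, and -1.03 scaled to listed reads). Calls of the lists were counted on the deposited scale only. Scaled to listed reads, 10 of the 441 tested names were called lower in R. The names of the muscle list summed to 292785 NE in R and 1886918 NE in P, nearly all from aja-miR-143_1ss22GT (289634 NE in R and 1866274 NE in P), with 0 names at 0.

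The immune list, which bears on a family known from lymphocytes, had 4 tested names, of which 2, the arms of miR-142, were called higher in R and 0 lower. Among all tested names, 19.0% were called higher and 8.39% lower on the same deposited scale. The median log2 ratio of the immune list was 0.70 on the deposited scale and 2.22 scaled to listed reads. hsa-miR-155-5p, named after its values were seen, had a log2 ratio of -0.71 on the deposited scale and 0.81 scaled to listed reads. The 6 names of the immune list summed to 13924 NE in R and 7927 NE in P, and its most abundant name was cgr-miR-142-5p_L-2R+1 (11379 NE in R and 5047 NE in P). Its names hsa-miR-155-3p_2ss4CN10AG and oan-miR-223-3p_1ss22AT were at 0 in P, and miR-146b and miR-150 were not among the names. In the lists of endothelium (4 names tested), erythroid cells (6) and fibroblasts (7), 0 names were called in either direction on the deposited scale and 0 were at 0. Their median log2 ratios were 0.52, -0.16 and -0.05 on this scale and 2.05, 1.36 and 1.47 scaled to listed reads, so that those of erythroid cells and fibroblasts turned. In NE, their sums were 32862 NE in R and 21303 NE in P for endothelium, led by hsa-miR-126-5p (23369 and 14955 NE). For erythroid cells they were 6107 and 9425 NE, led by cgr-miR-486-5p (5052 and 8073 NE), and for fibroblasts 105250 and 101394 NE, led by oar-miR-199a-3p (82015 and 84822 NE). The erythroid names were that of miR-486, those of miR-144, which in pairs divide the reads of 1 sequence, and ssc-miR-451_L+3R-1. The last had 2 reads in R and 1 read in P. The part of these differences in the values of the miR-181 family was not tested.

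Targets were predicted by the authors for miRNAs they had found to differ between the libraries, and the 3 5p names of the family are among the names of that table. It lists 689 gene identifiers for oar-miR-181a, 702 for mdo-miR-181b-5p and 674 for hsa-miR-181c-5p_R+1, where the median name had 578. The identifiers were not matched to gene names. oar-miR-181a and mdo-miR-181b-5p shared 661 identifiers, 95.9% of the former and 94.2% of the latter. oar-miR-181a and hsa-miR-181c-5p_R+1 shared 621, or 90.1% and 92.1%. hsa-miR-181c-5p_R+1 and mdo-miR-181b-5p shared 617, or 91.5% and 87.9%.

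All 3 names had 601 identifiers in common out of 767 listed for any of them. Listed for a single family name were 8 identifiers of oar-miR-181a, 25 of mdo-miR-181b-5p and 37 of hsa-miR-181c-5p_R+1. The 139 names outside the family shared a median of 14.1% of the identifiers of oar-miR-181a, and at most 30.3%. The programs of target prediction read the seed, which the 3 names share, and the overlap is a property of the predicted lists, not a measurement of regulation.

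In the authors' conservation table, precursors of the family were listed for 18 of 23 species. Precursors of mir-181a were listed for 16 species, mir-181b for 12, mir-181c for 9 and mir-181d for 11. Sheep, the relative nearest to goat in that table, had 2 precursors, both of mir-181a, and cow had 6, with each of mir-181a to mir-181d. A precursor not listed for a species is not thereby shown to be absent from it. In the goat gene table of RefSeq (assembly ARS1.2), MIR181C and MIR181D are neighbouring genes, and MIR181B is listed on another chromosome.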

How the data were processed

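Small RNA of 1 P and 1 R library of pooled goats was sequenced by the authors. Their known miRNAs are reads that align to precursors in the miRNA database and passed filters against other RNA classes and low-quality sequence. They deposited a normalized signal (NE) per name and library. Of the values of the known names, 86.5% in R and 89.3% in P were whole multiples, within 0.01 reads, of the value of 1 read, as were those of all 6 family names. Reads were recovered by division. The NE formula of the methods, which divides reads by the clean reads, did not give these values. Of the tables of targets and conservation, only the names and gene identifiers were used.

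Names repeated per precursor (54) were counted once, with reads and NE summed over their entries, since the entries hold parts of the reads: in R the reads were whole for 20 of these names in 1 entry and for 52 after summing. The NE of 1 entry had been used in a first run, which altered ranks, sums of lists and the number of names tested. A name was tested where NE was above 0 in both libraries and at least 1 in 1 of them. Fisher's exact test (two-sided) set rounded reads against the remaining clean reads, whose totals come from the study's read summary. Ratios and shares have 95% exact (Clopper-Pearson) intervals, and pairs of names the exact conditional interval of the odds ratio. A limit of 3 reads corresponds to 2.58 NE (R) and 3.49 NE (P). For arm ratios, reads of names with the same number after miR- were summed (in a first run, names with the same sequence entered once), and a name without an arm label was given the arm with which it shared 10 bases, or otherwise the opposite arm. Fisher's exact test, the intervals and the test of pairs were checked on simulated counts with counting error only. There the ratio and the P of a call both used the clean reads, so the calls with ratios of NE were not checked.

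The planned test over known and candidate names was run on the known names alone. In the candidate table the labels of the libraries stand the other way round than in the table of differences, so its 2 columns of values were not used; this was decided after a first run that had included them, and the reads and NE of the family do not depend on it, while the calls, ranks and shares over all names and the scalings by listed reads and by the median do. The authors' own fold changes and P-values were not used either.

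Members and lists were chosen with earlier results of these data known. The text names all members, names sharing a seed, the 5 nearest names, the 4 lowest and 4 highest arm changes, and the most abundant name and names at 0 of each cell type list. The lists, with both arms, were epithelium (miR-141, miR-200a, miR-200b, miR-200c, miR-429, miR-203, miR-205, miR-375, miR-182, miR-183, miR-96), muscle (miR-1, miR-133, miR-133a, miR-133b, miR-206, miR-499, miR-499a, miR-143, miR-145), immune cells (miR-142, miR-146a, miR-146b, miR-150, miR-155, miR-223), endothelium (miR-126), erythroid cells (miR-144, miR-451, miR-451a, miR-486) and fibroblasts (miR-199a, miR-199b, miR-214). Alternatives were other scalings, filters, tests and ways of counting. The work was done in Python 3.11.15 with scipy 1.17.1, numpy 2.4.6 and pandas 2.3.3, and plots were drawn with matplotlib 3.10.9.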

Additional observations from a re-analysis of the deposited data

How the results depend on the processing

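No paired analysis was possible because each phase had 1 library, and for the same reason no library could be left out. The direction and call of the 5 family names with a ratio were kept with the median of the tested names set to 0, a pseudocount of 1 NE, the exact binomial test and adjusted P-values. Scaled to the clean reads, the log2 ratios of the 5p names of miR-181a, miR-181c and miR-181b kept their direction but lost the call (-0.62, -0.48 and -0.40). On this scale the 3p name of miR-181c turned to 0.48, and that of miR-181a came to 0.10 with an interval on both sides of no difference (-0.26 to 0.47). Scaled to the listed reads, the ratios of all 5 names turned, to 0.12, 0.26, 0.34, 1.22 and 0.84 in the same order. The shift is set by the totals used. In the study's read summary, a smaller part of the raw reads was kept as clean reads in R than in P, and a larger part was ribosomal RNA. The bearing of this on the ratios was not tested. The names called higher and lower in R were 84 and 37 with the deposited values, 158 and 19 scaled to the clean reads, and 256 and 10 scaled to the listed reads. With at least 10 reads in each library 47 were called higher and 30 lower. The exact binomial test on the deposited scale called 70 higher and 49 lower. The share of the family in the listed reads moved from 1.76% in R and 1.57% in P to 2.14% and 2.60% without the most abundant name and to 0.793% and 1.18% of the clean reads. Taken over both arms, the share of oar-miR-181a was 72.5% in R and 75.2% in P. A count of 1 added to each cell left the direction and the side of the threshold of the 10 pairs unchanged, and with 50 reads per arm the share of other miRNAs with a lower arm ratio was 27.0% for miR-181a and 18.9% for miR-181c. Depth limits the 3p names most, and the 3p name of miR-181b, with 1 read per library, gives no ratio.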
